A study of Homo sapiens with 18 samples.

Results

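The SERPINB cluster on human chromosome 18 was described here through the histone-mark peaks that lie in it. Its members were all peak summits, the single bases of highest enrichment, of 13 deposited lists in the hg19 window 18:61120-61680 kb, which runs from SERPINB5 at the low end to SERPINB8 at the high end. The window held 97 of the 947675 summits of the series, 22 of H3K27ac, 58 of H3K4me1 and 17 of H3K4me3. ChIP-seq, the sequencing of DNA pulled down with antibodies to a mark, was run for these 3 marks in lung adenocarcinoma cells under 4 conditions. These were the line H2087-LCC without added cytokine (LCC), the same line after 4 days with TGF-β1, at 100 nM by the labels (TGFb), the line labelled H2087-LCC-SO1 (SO1) and the separate line H2030. LCC H3K27ac was profiled in 2 replicates, which the labels call biological, and every other combination of mark and condition in 1 library, so H3K4me1 and H3K4me3 allow no test between conditions, and none was made for H3K27ac, where LCC alone has replicates. The labels give H2030 a simpler medium than the H2087 cells, which share a medium with hydrocortisone, insulin and epidermal growth factor, so line and medium cannot be told apart. Each condition is a single line, and the labels do not say how SO1 was derived.

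The clade B serpins are protease inhibitors, or inactive relatives of them, that mostly stay inside the cell. SERPINB5 (maspin) is an epithelial protein without inhibitor activity, SERPINB2 inhibits the urokinase plasminogen activator, SERPINB3 and SERPINB4 are the squamous cell carcinoma antigens, and SERPINB8 can inhibit furin. SERPINB13 (headpin) and SERPINB12 are made in stratified and other epithelia, SERPINB7 (megsin) in skin and kidney mesangium, and SERPINB10 (bomapin) in blood cells. H3K4me3 is found at promoters, H3K4me1 at enhancers and beside promoters, and H3K27ac at elements of either kind that are active. By RefSeq's gene order the window runs SERPINB5, SERPINB12, SERPINB13, SERPINB4, SERPINB3, SERPINB11, SERPINB7, SERPINB2, SERPINB10, HMSD (a minor histocompatibility antigen gene outside the family) and SERPINB8. The gene table at hand is of another build than the peaks, so no peak was assigned to a gene. Sites are named by hg19 position, and "the SERPINB5 end" and "the SERPINB8 end" are the ends of the window. The labelled cell type was not checked against marker genes for the same reason.

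The promoter sequences of the genes are given first, since the cluster is described here by position. RefSeq (GRCh38.p14) gave 11 promoters for 8 of the 10 genes, with none used for SERPINB11 and SERPINB10. The 250 bases before each start were searched on both strands for TGANTCA, a loose pattern with any base in the middle. TGACTCA, its strict form and the core of the site that AP-1 factors recognise, was searched in the same way and overlaps it. TGANTCA was present in 7 of the 11 promoters, those of SERPINB5, SERPINB12, SERPINB13, SERPINB7, SERPINB2 and SERPINB8, against 6.57% of all 35116 promoters in the table. The strict form was present in 4 of the 11, against 4.20%. These were the promoters of SERPINB13, SERPINB8 and 2 of the 3 SERPINB7 starts. The matches of SERPINB5, SERPINB12 and SERPINB2 were of the looser form only. They had A or T in the middle and are not read here as AP-1 sites. The second SERPINB12 start and the first SERPINB7 start had no match of either form. SERPINB12 has 2 starts and SERPINB7 has 3 in the table, and the cluster arose by duplication, so the 11 are not independent. A match is a description of letters and not of binding. Shown here are the genes at both ends and 2 from between them, 5′ to 3′ on the strand of the gene, with TGANTCA matches in capitals. They lie at chr18:63476708-63476957 (+ strand), chr18:63775168-63775417 (+ strand, the second of 3 starts), chr18:63887455-63887704 (+ strand) and chr18:63969831-63970080 (+ strand) in GRCh38.p14, positions that cannot be set against the hg19 peaks.
SERPINB5: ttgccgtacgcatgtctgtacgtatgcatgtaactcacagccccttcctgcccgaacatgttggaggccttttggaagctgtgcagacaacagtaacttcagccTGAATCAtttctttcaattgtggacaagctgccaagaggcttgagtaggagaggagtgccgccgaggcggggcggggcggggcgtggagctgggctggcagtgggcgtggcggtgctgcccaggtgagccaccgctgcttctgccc
SERPINB7: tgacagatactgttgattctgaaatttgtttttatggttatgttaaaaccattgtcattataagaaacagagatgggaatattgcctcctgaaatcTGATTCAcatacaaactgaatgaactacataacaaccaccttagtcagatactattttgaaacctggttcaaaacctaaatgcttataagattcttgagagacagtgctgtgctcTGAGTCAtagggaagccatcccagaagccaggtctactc
SERPINB2: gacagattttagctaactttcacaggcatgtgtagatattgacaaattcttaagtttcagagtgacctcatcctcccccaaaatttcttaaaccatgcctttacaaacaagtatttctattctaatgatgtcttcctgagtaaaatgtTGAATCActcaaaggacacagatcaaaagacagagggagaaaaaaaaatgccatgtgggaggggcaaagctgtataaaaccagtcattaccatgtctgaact
SERPINB8: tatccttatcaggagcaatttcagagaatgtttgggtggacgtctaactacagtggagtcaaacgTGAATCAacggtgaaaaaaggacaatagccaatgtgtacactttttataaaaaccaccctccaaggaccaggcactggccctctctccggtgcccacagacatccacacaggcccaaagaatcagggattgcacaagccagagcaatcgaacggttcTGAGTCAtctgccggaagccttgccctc

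The end genes had the promoters richest in CG. SERPINB5 had 13 CG dinucleotides in its 250 bases and SERPINB8 had 7, while the other 6 genes had between 0 and 4 and the median of all promoters was 11. SERPINB5 also held the only matches of GGGCGG, the box bound by SP1, with 2, a motif present in 42.6% of all promoters. TATAAA, the TATA box, was present in 4 of the 11 member promoters, 1 each of SERPINB12, SERPINB7, SERPINB2 and SERPINB8, against 10.7% of all.

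SERPINB4 and SERPINB3 are printed because they are near copies of each other, which bears on whether reads can be placed in the middle of the cluster. Their 250 bases differed at 3 positions, set in capitals, and were 98.8% identical. No other of the 28 pairs of genes exceeded 33.6% in the same ungapped comparison. They lie at chr18:63644257-63644506 and chr18:63661894-63662143 (both − strand, GRCh38.p14).
SERPINB4: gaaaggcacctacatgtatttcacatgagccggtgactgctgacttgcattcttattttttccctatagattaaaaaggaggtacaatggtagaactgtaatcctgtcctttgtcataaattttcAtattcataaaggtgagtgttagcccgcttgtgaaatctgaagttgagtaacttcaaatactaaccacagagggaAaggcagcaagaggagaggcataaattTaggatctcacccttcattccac
SERPINB3: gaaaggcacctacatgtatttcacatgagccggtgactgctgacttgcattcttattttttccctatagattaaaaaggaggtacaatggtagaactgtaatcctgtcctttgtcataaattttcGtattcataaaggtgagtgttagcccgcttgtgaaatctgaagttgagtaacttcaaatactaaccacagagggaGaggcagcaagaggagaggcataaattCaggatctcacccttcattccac
Reads from such copies are hard to place, so a missing peak there need not be a missing mark. How the authors treated reads with several matches is not given in the sources used here, and its part in the results was not tested.

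Against the rest of the genome, the cluster lay below the median window for H3K4me1 and H3K27ac in the H2087 cells. In H2030 it lay above the median for H3K4me1 and at it for H3K27ac. LCC held 3 H3K27ac summits in each replicate, 9 H3K4me1 and 4 H3K4me3 summits. TGFb held 6, 16 and 5, SO1 held 4, 10 and 4, and H2030 held 6, 23 and 4. The median 560 kb window of the genome, over 5035 windows with any summit, held 25 LCC, 25 TGFb, 22 SO1 and 19 H2030 H3K4me1 summits. The window thus lay below the median for this mark in the 3 H2087 conditions and above it in H2030. The genomic windows with fewer made up 27.4% in LCC, 36.5% in TGFb, 30.8% in SO1 and 55.7% in H2030. H3K27ac lay below medians of 7 and 9 in the LCC replicates, 10.0 in TGFb and 9 in SO1, and at the median of 6 in H2030. For this mark 31.0% and 28.0% of windows held fewer in the LCC replicates, 35.3% in TGFb, 31.5% in SO1 and 46.8% in H2030. H3K4me3 was at the median of 4 in LCC, SO1 and H2030. Most H3K4me1 summits of the window scored low: at scores of at least 10, LCC had 5, TGFb 2, SO1 6 and H2030 10, so TGFb then lay below LCC while H2030 stayed highest. The 560 kb below the window held 16 to 29 H3K4me1 summits per condition and the 560 kb above it none, so the cluster borders on a region without this mark. These are counts of called peaks in cultures of unknown depth, in which fewer marked cells and less mark per cell cannot be told apart.

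**Figure D1:**
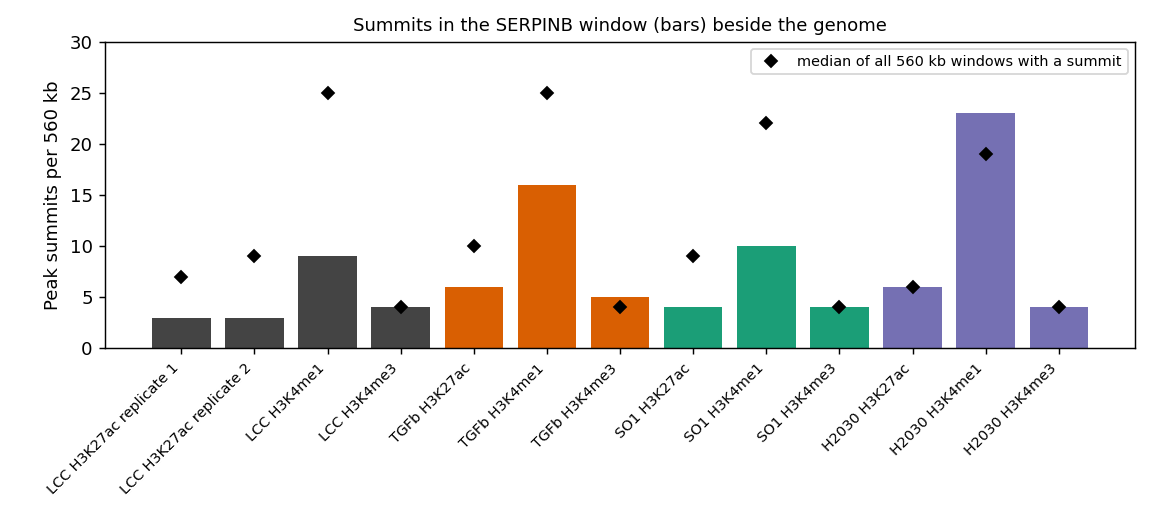
Peak summits in the 560 kb SERPINB window (bars, coloured by condition) in each of the 13 libraries, with the median of all 560 kb windows of the genome that hold any summit (diamonds). H3K4me1 bars stand at 9, 16 and 10 in LCC, TGFb and SO1, under medians of 25, 25 and 22, and at 23 in H2030, over a median of 19.

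The summits gathered in a few places. Of 28 tiles of 20 kb, 10 held no summit of any library. The 4 fullest held 71 of the 97 summits, with 17 at 18:61140001-61160000, 17 at 18:61440001-61460000, 18 at 18:61600001-61620000 and 19 at 18:61620001-61640000. No other tile held more than 6. The tiles with 18 and 19 summits adjoin, and a site marked in several libraries is counted once for each of them. The longest stretch without any summit inside the window was 162235 bp in LCC, 162587 bp in TGFb, 310511 bp in SO1 and 133208 bp in H2030. In LCC and TGFb it began just above the SERPINB5 end, at 18:61145655 and 18:61145884. The LCC stretch ended at a single summit of H3K27ac replicate 1, and without that library it measured 310392 bp, close to that of SO1. The TGFb and H2030 stretches also ended at weak summits, of H3K4me1 with scores of 4.92 and 3.03.

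**Figure D2:**
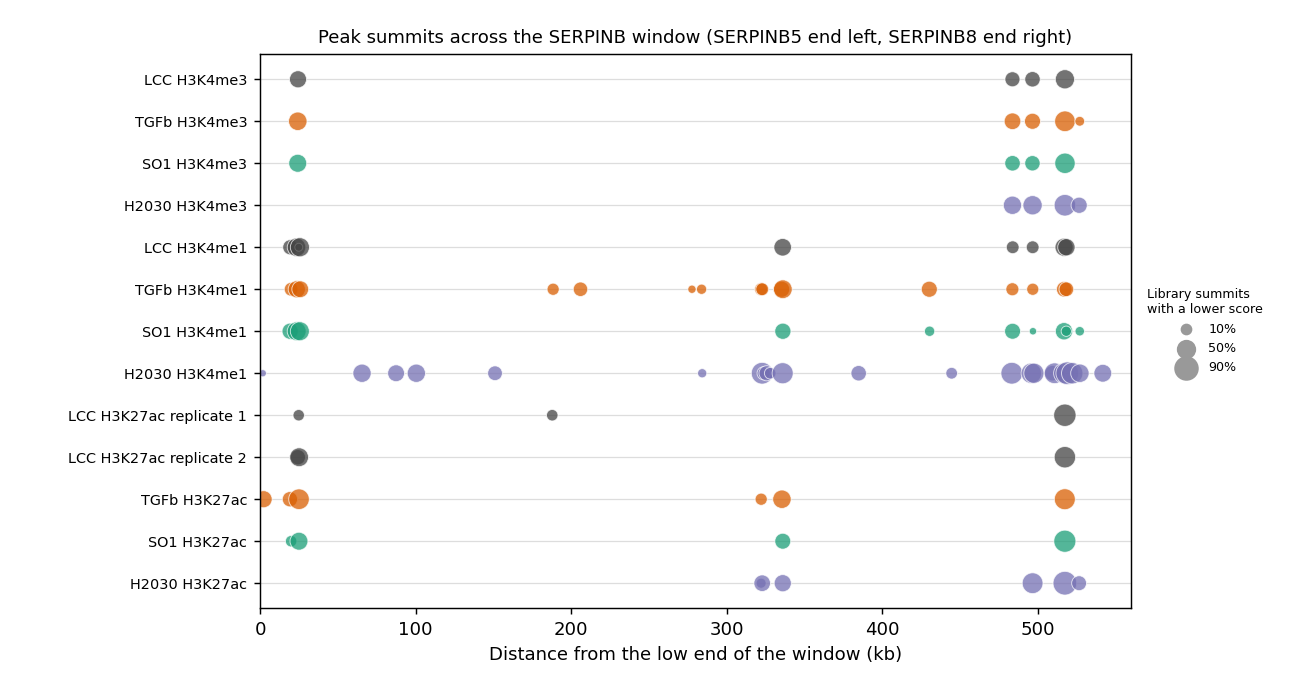
Every summit of the 13 libraries by its distance in kb from the low end of the window, with 1 row per library. Point area grows with the share of that library's summits that have a lower score. The H2087 rows (grey, orange, green) have H3K4me3 at both ends and H2030 (purple) only at the SERPINB8 end. H3K4me1 is spread across the middle in H2030, with 12 summits, and in TGFb (orange), with 9.

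Promoter-type H3K4me3 was found at 5 sites, and the SERPINB5 end separated the lines. Each summit carries the authors' score, on a −log10 scale of p or q, which rises with depth. A score is therefore given with the percentage of summits in its own library that scored lower. At 18:61144268-61144441, at the SERPINB5 end, the H3K4me3 score was 146 in LCC (above 47.1% of that library), 275 in TGFb (56.5%) and 240 in SO1 (52.9%). H2030 had no H3K4me3 summit there, and its nearest lay 54833 bp away, below the window. All 3 H2087 libraries were thus marked near the middle of their lists and H2030 was not. Against LCC, H2030 lost 1 of the 4 H3K4me3 sites of the window, beside 32.2% of LCC H3K4me3 sites in the genome when no H2030 summit was allowed within 1 kb and 22.3% within 10 kb. TGFb and SO1 lost none of the 4, beside 6.55% and 11.3%. A presence in LCC, TGFb and SO1 with absence in H2030 was the pattern of 14.3% of the 39776 H3K4me3 sites.

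The other marks at the SERPINB5 end followed H3K4me3. H3K27ac at 18:61144333-61145139 scored 4.64 in LCC replicate 1 and 20.5 in replicate 2, 81.3 in TGFb and 34.3 in SO1. H2030 had no H3K27ac summit within 54196 bp. H3K4me1 stood on both sides of the H3K4me3 summit, at 18:61143475-61143650 with 14.4 in LCC, 10.4 in TGFb and 22.2 in SO1, and at 18:61144934-61145884 with 16.5, 9.73 and 23.1. These were the highest H3K4me1 scores of the window in LCC and SO1. The nearest H2030 H3K4me1 summits lay 21674 bp and 23133 bp away, and another H3K4me1 site of the H2087 cells, at 18:61139387-61140006, had none within 17586 bp. These 3 were the H3K4me1 sites lost in H2030 out of 8 in LCC, beside 52.9% of all LCC sites at 1 kb and 25.8% at 10 kb. H2030 likewise lost 1 of the 2 H3K27ac sites held by both LCC replicates, beside 45.3% and 29.3%. At scores of at least 10 it lost 0, since LCC replicate 1 scored 4.64 there, and without LCC replicate 2 it lost 2.

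Of the 2 window sites that carried all 3 marks in LCC, the one at the SERPINB5 end had no H2030 summit of any mark within 10 kb. In the genome this held for 6.47% of 15938 such LCC sites, for 0.307% in SO1 and for 0.00627% in TGFb, and neither SO1 nor TGFb lacked a window site in this way. Whether H2030 holds this stretch of DNA in full was not tested. H2030 had an H3K4me1 summit at 18:61185602, inside the window, and 3 H3K27ac, 16 H3K4me1 and 6 H3K4me3 summits in the 560 kb below it.

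The size of the H3K27ac signal at the SERPINB5 end was uncertain in LCC itself. In lists shortened to the top 50628 summits each, it stood above 16.1% of replicate 1 and 49.3% of replicate 2, a mean of 32.7% ± 23.4 (SD, n = 2). The replicates differed by 33.1 percentage points, while over 34374 sites marked in both the median difference was 8.27 and the 90th percentile 28.1. TGFb stood at 62.8%, which was 46.7 points above replicate 1 and 13.6 above replicate 2. SO1 stood at 47.3%, between the replicates. The TGFb value therefore exceeded both LCC values, but by less over replicate 2 than the replicates differed from each other.

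**Figure D3:**
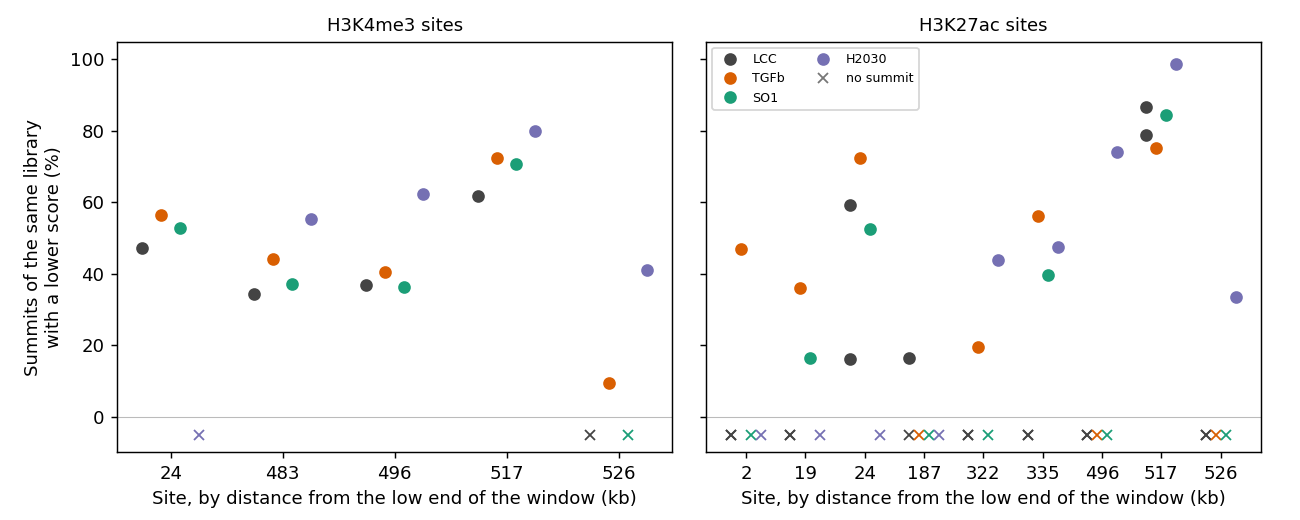
Strength of each H3K4me3 site (left) and H3K27ac site (right) as the percentage of summits of the same library with a lower score, by distance of the site from the low end of the window in whole kb. Points are single libraries, with 2 for LCC H3K27ac, and crosses mark libraries without a summit. At 24 kb, H3K4me3 stands at 47.1% to 56.5% in the H2087 conditions and is missing in H2030, and the LCC H3K27ac replicates stand at 16.1% and 59.2%.

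The SERPINB8 end carried the strongest promoter-type mark of the cluster in all conditions. At 18:61637507-61637554 the H3K4me3 score was 358 in LCC (above 61.7% of its library), 495 in TGFb (72.4%), 515 in SO1 (70.7%) and 511 in H2030 (79.9%). H3K27ac at 18:61637447-61637510 scored 61.3 and 61.4 in the LCC replicates, 97.2 in TGFb, 172 in SO1 and 378 in H2030. The H2030 value exceeded 98.6% of that library, the highest standing of any summit in the window. In lists of equal length LCC stood at 80.2% ± 9.27 (SD, n = 2), TGFb at 66.6%, SO1 at 82.7% and H2030 at 98.5%. TGFb minus the lower LCC replicate was -7.07 points, smaller in size than the 13.1 points between the replicates. H2030 minus the higher LCC replicate was 11.8 points. That value lies near the upper limit of the scale, so it cannot be weighed against the replicate difference. H3K4me1 flanked this promoter at 18:61636810-61637060 and 18:61638402-61639042 in all 4 conditions. On the high side its score was 34.2 in H2030, the highest H3K4me1 score of the window, against 11.1 in LCC, 6.65 in TGFb and 4.18 in SO1. On the low side the scores were 13.1 in LCC, 7.81 in TGFb, 15.1 in SO1 and 16.2 in H2030.

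A pair of weaker H3K4me3 sites lay below the SERPINB8 end and stood higher in H2030 than in any H2087 library. At 18:61603780-61603827 the score was 42.4 in LCC (above 34.4% of its library), 78.4 in TGFb (44.1%), 49.8 in SO1 (37.2%) and 355 in H2030 (55.3%). At 18:61616636-61616720 it was 52.7 (36.8%), 54.6 (40.4%), 45.5 (36.3%) and 432 (62.3%). The 3 H2087 libraries lay close together at the second site, and H2030 lay above them at both. Only H2030 had H3K27ac at the second, at 18:61616729 with a score of 83.8, while the nearest H3K27ac of the H2087 libraries lay between 20718 bp and 20781 bp away. No library had H3K27ac at the first. Across the genome 1715 sites had H3K4me3 in every condition and no H3K27ac in LCC, TGFb and SO1, and 34.2% of them had it in H2030, beside 1 of the 2 here.

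The fifth H3K4me3 site, at 18:61646664-61647047, was missing in LCC and SO1. Its score was 97.5 in H2030, with H3K27ac of 7.79 at 18:61646629 and H3K4me1 of 10.0 at 18:61647134. TGFb had an H3K4me3 summit of 6.07, above only 9.40% of its library, and SO1 had H3K4me1 alone, with 3.68. It was the 1 H3K4me3 site gained over LCC in TGFb of the 5 it held, beside 15.0% of TGFb sites in the genome, and the 1 of 4 in H2030, beside 31.3%. SO1 gained none of 4, beside 19.3%. A presence in TGFb and H2030 alone was the pattern of 0.998% of H3K4me3 sites. LCC had a summit 9149 bp away, so neither gain held when none was allowed within 10 kb, and the TGFb gain did not hold at scores of at least 10.

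The arrangement of H3K4me1 around H3K4me3 differed between the sites and, at 1 of them, between the lines. Strong promoters usually have H3K4me3 at the start and H3K4me1 to either side. In the H2087 conditions this was so at both ends of the cluster, with H3K4me1 between 490 bp and 1599 bp from the H3K4me3 summit on each side. At 18:61616636-61616720 the H2087 libraries instead had a single H3K4me1 summit between 92 bp and 328 bp from the H3K4me3 summit. These summits were weak, with scores of 5.31 in LCC, 4.92 in TGFb and 2.39 in SO1, the last above only 1.69% of its library. Their positions therefore rest on calls of low score. H2030 had a pair there, 787 bp below and 863 bp above, with scores of 16.3 and 15.3. At 18:61603780-61603827 a single H3K4me1 summit lay 153 bp away in LCC, 72 bp in TGFb, 38 bp in SO1 and 421 bp in H2030, where its score of 23.6 was the second highest H3K4me1 value of that condition in the window. Over the genome an H3K4me1 summit lay within 2.5 kb on each side of 49.1% of LCC, 45.4% of TGFb, 43.5% of SO1 and 49.3% of H2030 H3K4me3 summits. Among H2030 summits at or above the median score the share was 78.2%, and below it 20.3%. The H2030 score of 432 is in the first group, and the scores of 42.4 to 78.4 of the H2087 libraries at the 2 weaker sites are in the second, where the shares were 22.3% in LCC, 20.1% in TGFb and 14.4% in SO1. The site at 18:61603780-61603827 in H2030, with a score of 355 and no flanking pair, and the SERPINB5 end in LCC, with a score of 146 below that library's median and a flanking pair, did not have the commoner arrangement for their scores.

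**Figure D4:**
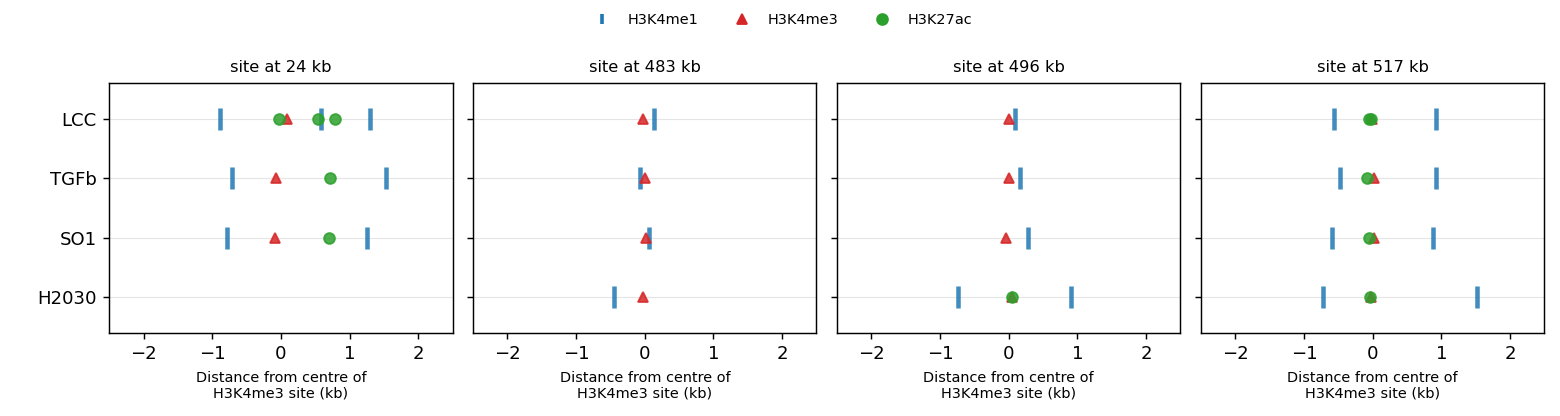
Positions of H3K4me1 (bars), H3K4me3 (triangles) and H3K27ac (circles, 2 libraries in LCC) summits within 2.5 kb of the centre of 4 H3K4me3 sites, named by whole kb from the low end of the window, with 1 row per condition. The H2030 row is empty at 24 kb, and at 496 kb H3K4me1 flanks the H2030 triangle at 787 bp and 863 bp but lies within 328 bp of it in the other rows.

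The middle of the cluster was taken as 18:61154441 to 18:61593780. It is the stretch between the H3K4me3 site at the SERPINB5 end and the next H3K4me3 site, less 10 kb on each side. By this definition it held no H3K4me3 in any library. Its H3K4me1 summits numbered 1 in LCC, 9 in TGFb, 2 in SO1 and 12 in H2030. Its H3K27ac summits numbered 1 in LCC replicate 1, 0 in replicate 2, 2 in TGFb, 1 in SO1 and 3 in H2030.

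The clearest enhancer-like site of the middle lay at 18:61455424-61456169 and had H3K4me1 in all 4 conditions but H3K27ac in all except LCC. H3K4me1 scored 11.7 in LCC, 14.4 in TGFb, 11.4 in SO1 and 19.6 in H2030. The TGFb value was the highest H3K4me1 score of TGFb in the window. H3K27ac scored 29.5 in TGFb (above 56.1% of its library), 17.5 in SO1 (39.6%) and 13.8 in H2030 (47.6%). The nearest LCC H3K27ac summits lay 147686 bp away in replicate 1 and 181393 bp in replicate 2. H3K27ac in these 3 conditions and in neither LCC replicate was the pattern of 1505 H3K27ac sites, or 1.50% of 100455. LCC H3K4me1 lay within 1 kb of 81.7% of the 1505, as it did here.

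A second site of the middle, at 18:61442182-61442875, had H3K27ac in TGFb and H2030 only. It scored 5.91 in TGFb (above 19.5% of its library) and 11.5 in H2030 (43.8%), and the nearest SO1 summit lay 13242 bp away. The TGFb summit scored too low to enter the lists of equal length. H3K4me1 at 18:61442185-61443821 was likewise found in those conditions, with 5.47 in TGFb and 23.4 in H2030 (above 81.3% of that library). The H3K27ac pattern was that of 1.93% of H3K27ac sites and the H3K4me1 pattern that of 1.72% of 220847 H3K4me1 sites. H3K4me1 at 18:61403915-61404308 had the same pattern, with scores of 3.89 and 3.03.

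The other H3K27ac gains over LCC lay near the SERPINB5 end in TGFb and SO1 and toward the SERPINB8 end in H2030, at the sites 18:61616729 and 18:61646629 given above. TGFb gained 4 of its 6 H3K27ac sites, beside 27.7% in the genome, and SO1 gained 2 of 4, beside 24.8%. H2030 gained 4 of 5, beside 47.1%. TGFb and SO1 both had H3K27ac at 18:61139234-61140007, with scores of 10.6 and 6.33, where LCC had H3K4me1 of 7.46. TGFb alone had it at 18:61122317, with 17.7. LCC H3K27ac lay between 4326 bp and 4885 bp from these 2 sites, and at scores of at least 10 SO1 gained 1. When none was allowed within 10 kb, 2 gains remained in TGFb (11.5%), 1 in SO1 (12.3%) and 3 in H2030 (23.6%). TGFb and SO1 lost neither of the 2 LCC H3K27ac sites, beside 10.3% and 17.4%. Without LCC replicate 2 each lost 1, since LCC replicate 1 alone had a summit at 18:61307890, with 4.68, and the nearest replicate 2 summit lay 162751 bp away.

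H3K4me1 sites without H3K4me1 in LCC were found in TGFb at low scores and in H2030 over a wider range of scores. TGFb gained 6 of 14 H3K4me1 sites, beside 23.8% in the genome at 1 kb. All 6 had no LCC H3K4me1 summit within 10 kb, beside 5.72%. The genome's shares at 10 kb are not matched for how densely LCC is marked, and the middle held 1 LCC H3K4me1 summit. The 6 sites lay between 18:61308471 and 18:61550314, and their highest TGFb scores ran from 2.93 to 8.44, under the TGFb library median of 11.1. The site at 18:61308471 lay within 1 kb of the LCC H3K27ac replicate 1 summit at 18:61307890. At scores of at least 10, TGFb gained 0 H3K4me1 sites and lost 3 of those LCC still had. SO1 gained 2 of 10, beside 26.8%, and 1 of them at 10 kb, beside 7.98%. That one, at 18:61550314-61550508, was shared with TGFb and scored 4.18 in SO1. H2030 gained 16 of 21, beside 48.8%, and 10 at 10 kb, beside 16.9%, and at scores of at least 10 it gained 7. With all scores TGFb and SO1 lost none of the 8 LCC sites, beside 23.6% and 32.7%, and at scores of at least 10 SO1 lost 1.

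Most of the H2030 gains were H3K4me1 alone at places no H2087 library marked. Of 20 H2030 sites, after merging the marks, 12 were of this kind, beside 27.9% of 118833 in the genome. The strongest were 18:61642204, with a score of 21.5 (above 78.9% of the library), and 18:61630852, with 17.6 (73.3%), both near the SERPINB8 end. In the lower part of the window 4 lay at 18:61185602 (9.77), 18:61207499 (7.39), 18:61220513 (9.77) and 18:61271100 (5.57). The last of these bordered on the longest empty stretch of H2030.

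Summits of LCC H3K4me1 were found within 500 bp in 7 of 9 cases in TGFb, which is 77.8% (Wilson 95% interval 45.3 to 93.7) beside 62.1% in the genome. They were found in 8 of 9 in SO1, 88.9% (56.5 to 98) beside 53.7%, and in 2 of 9 in H2030, 22.2% (6.32 to 54.7) beside 35.0%. Allowing 1000 bp raised the window's share to 55.6% in H2030 and to 100% in TGFb and SO1. Scores of at least 10 gave 40.0% in both TGFb and H2030 and 80.0% in SO1, so TGFb and H2030 then did not differ. In the other direction 7 of 16 TGFb summits had an LCC summit, 43.8% (23.1 to 66.8) beside 61.6%, and 8 of 10 SO1 summits, 80.0% (49.0 to 94.3) beside 59.6%. Of the H2030 summits 2 of 23 had one, 8.70% (2.42 to 26.8), and the genome's share was 37.6%. Some other H2030 summits, such as 18:61639042 beside 18:61638459 in LCC, lay between 500 bp and 1000 bp from an LCC summit. Shares in this direction, and all shares of the genome, were not computed at 1000 bp. The intervals cover counting error only, and neighbouring summits are not independent.

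Enhancer-like sites, with H3K27ac and H3K4me1 but no H3K4me3, numbered 0 of 6 marked sites in LCC, 3 of 14 in TGFb, 2 of 8 in SO1 and 2 of 20 in H2030. The genome's shares were 13.5%, 25.5%, 22.1% and 17.1%, and in LCC a site needed H3K27ac in both replicates. Merging marks within 500 bp in place of 1 kb left 1 such site in SO1. Of 26 sites of any mark in the window, 4 were marked in all 4 conditions. These were the sites at 18:61455424-61456169 and 18:61603359-61603937, the one at 18:61615933-61617583 and the SERPINB8 end at 18:61636810-61639042.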

How the data were processed

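Reads were handled with Bowtie2, SAMtools and deepTools on hg19, per the submitters' processing notes. Neither the peak caller nor its threshold is named in the sources used here. The deposited lists hold summits 1 bp wide with a score read here as a −log10 p or q, since the lowest, 1.30107, lies just above 1.30103, the −log10 of 0.05. Peak names carry 1 library each. Depths are unknown, and the 5 input samples were not used here.

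Summits on chromosomes 1 to 22 and X were read in Python 3.11.15 with numpy 2.4.6 and scipy 1.17.1. Summits of a mark within 1 kb were joined into sites. A site was gained when no LCC library marked it, and lost when every LCC library but not the other condition did, with none within 1 kb or, more strictly, 10 kb. Shares have Wilson 95% intervals. Sites named were the 3 highest per mark and condition, the strictly gained or lost and those of the fullest tiles, and other sites were named after their values were seen. The gain and loss rules were run on planted sites, far from other summits, in copies of the LCC H3K4me3 list. That run checked the counting only. It did not cover weak or missed summits, dense H3K4me1 or the H3K27ac rule for 2 replicates. The members, lists and rules were chosen with earlier results of these data known, and the promoter motifs were chosen later still.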

Additional observations from a re-analysis of the deposited data

How the results depend on the processing

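With scores of at least 10, H3K4me1 summits in the window fell to 5 in LCC, 2 in TGFb, 6 in SO1 and 10 in H2030, and LCC H3K27ac replicate 1 kept 1. Shares of LCC summits found elsewhere became 100% for H3K27ac in TGFb and SO1 and 40.0% for H3K4me1 in TGFb. The H3K4me1 share in H2030 also became 40.0%. Gains became 1 for H3K27ac in SO1, 0 for H3K4me1 in TGFb, 7 for H3K4me1 in H2030 and 0 for H3K4me3 in TGFb. Losses became 0 for H3K27ac in H2030, 3 for H3K4me1 in TGFb and 1 for H3K4me1 in SO1. The TGFb excess of H3K4me1 thus rests on low scores. With no summit within 10 kb, gains were 2 and 1 for H3K27ac in TGFb and SO1, 1 and 10 for H3K4me1 in SO1 and H2030, and 0 and 0 for H3K4me3 in TGFb and H2030. A distance of 1000 bp gave 100%, 100% and 55.6% of LCC H3K4me1 summits in TGFb, SO1 and H2030. Lists of equal length gave 100% in SO1 and 0 H3K4me3 gains in TGFb. Merging within 500 bp left 1 enhancer-like site in SO1. Leaving out either LCC H3K27ac replicate gave 0 to 1 losses in TGFb and SO1 and 1 to 2 in H2030, the higher values without replicate 2, and a longest empty stretch in LCC of 162235 to 310392 bp, an alternative chosen after seeing the data. The 1 lost H3K4me3 site of H2030 had the same count under the score, list-length and distance alternatives, and its 3 lost H3K4me1 sites did except for 2 at scores of at least 10. Of 192 alternative values, 161 stayed within 1.5 times the count or inside the interval of the value reported, including all with the window moved by 20 kb at each end. The intervals of the shares rest on few summits and are wide, so a share inside one may still have changed much. For LCC H3K27ac summits found in H2030, the interval of 9.68 to 70.0 held both the reported 33.3% and 66.7% at scores of at least 10. No paired analysis was possible because the replicate numbers are given for LCC H3K27ac and the inputs only, and the inputs have no summits. Depth is unknown, so a missing weak summit cannot be told from a missing mark.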
